A study of Mus musculus with 2 samples.

Results

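Islet endothelial cells, which line the capillaries of the islets of Langerhans, were represented by 820 barcodes of the 8897 that met the limits on barcode quality (9.22%), 418 in the WT library and 402 in the Npc1-/- library. The 2 libraries were droplet-based single-cell RNA libraries of collagenase-isolated, trypsin-dissociated islets from 2-week-old female mice on the C57BL/6J background, and each pooled the islets of 3 mice of 1 genotype. Npc1-/- mice came from matings of heterozygous mice, whose wild type littermates were the WT group. A droplet barcode stands for what was captured in 1 droplet, usually 1 cell, and a UMI (unique molecular identifier) counts 1 captured transcript. Barcodes of 1000 genes or fewer, of 50000 UMIs or more, with 10% or more of mitochondrial UMIs or with over 0.1% of haemoglobin UMIs were left out. It was called endothelial when at least 4 of Plvap, Pecam1, Emcn, Cdh5, Kdr, Esm1, Egfl7 and Flt1 had a UMI, when Ins1 with Ins2, Gcg, Sst, and Ppy with Pyy each took less than 10% of its UMIs, and when Pdgfrb, a receptor of pericytes, had none. These 8 genes chose the barcodes, so their levels below describe the choice and support nothing. With 1 library per genotype there is no replicate, and no difference between the libraries was tested. Intervals are exact 95% intervals and cover counting error only, and genotype cannot be told apart from pool or library.

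Islet capillaries are dense and fenestrated: endothelial cells carry pores closed by a diaphragm of PLVAP, through which hormones reach the blood. Endocrine cells keep these capillaries through VEGF-A, which signals to the receptors KDR and FLT1, and endothelial cells in turn lay down the basement membrane on which beta cells rest. NPC1, the protein deleted here, carries cholesterol out of late endosomes and lysosomes.

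Npc1 itself (GRCm38 chr18:12189692-12236400, minus strand) was counted first as a check on the labels. WT endothelial barcodes held 83 Npc1 UMIs in 70 barcodes, or 20.6 CPM (counts per 1000000 UMIs, the scale of all levels below), and Npc1-/- endothelial barcodes held 42 UMIs in 38 barcodes, or 9.23 CPM. Npc1 was thus lower in the Npc1-/- library but not at 0, with a log2 ratio of -1.16 (-1.74 to -0.61). In all other kept barcodes it was 7.85 CPM in WT and 3.88 CPM in Npc1-/-, a log2 ratio of -1.09. The side of the label held in both sets of barcodes. How the allele changes the transcript is not given in the sources used here.

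The endothelial barcodes were shares of like size in the 2 libraries. They made up 9.03% (8.22 to 9.89) of 4628 kept WT barcodes and 9.42% (8.56 to 10.3) of 4269 kept Npc1-/- barcodes, a ratio of 1.04 (0.907 to 1.20). Among kept barcodes under the hormone limit alone, where beta and alpha cells no longer enter the denominator, the shares were 36.4% (33.7 to 39.3) of 1147 and 40.1% (37.0 to 43.2) of 1003. Summed over these barcodes there were 4033843 UMIs and 15099 detected genes in WT and 4550089 UMIs and 14870 genes in Npc1-/-, so a gene at 0 UMIs could have stood at up to 0.744 or 0.659 CPM (3 UMIs). No endothelial barcode sequence occurred in both libraries, against 12 among all barcodes and 3 among kept ones.

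The choice by number of genes left few barcodes near the limit. Of the WT barcodes that met the other limits, 284 had none of the 8 genes, 116 had 1, 10 had 2 and none had 3, against 2 with 4, 3 with 5, 4 with 6, 49 with 7 and 360 with all 8. The Npc1-/- library had the same shape, with 160, 60, 8 and 1 barcodes from none to 3 genes, then none with 4, 1 with 5, none with 6, 41 with 7 and 360 with all 8. The gap between 2 and 7 genes is wide in both libraries. Inside the hormone limit, 11 WT and 1 Npc1-/- barcodes gave 5 to 10% of their UMIs to the leading hormone, and 8 and 7 barcodes that failed only the hormone limit lay between 10 and 20%. Of those that failed only the Pdgfrb limit, 2 in WT and 3 in Npc1-/- had a single Pdgfrb UMI.

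**Figure D1:**
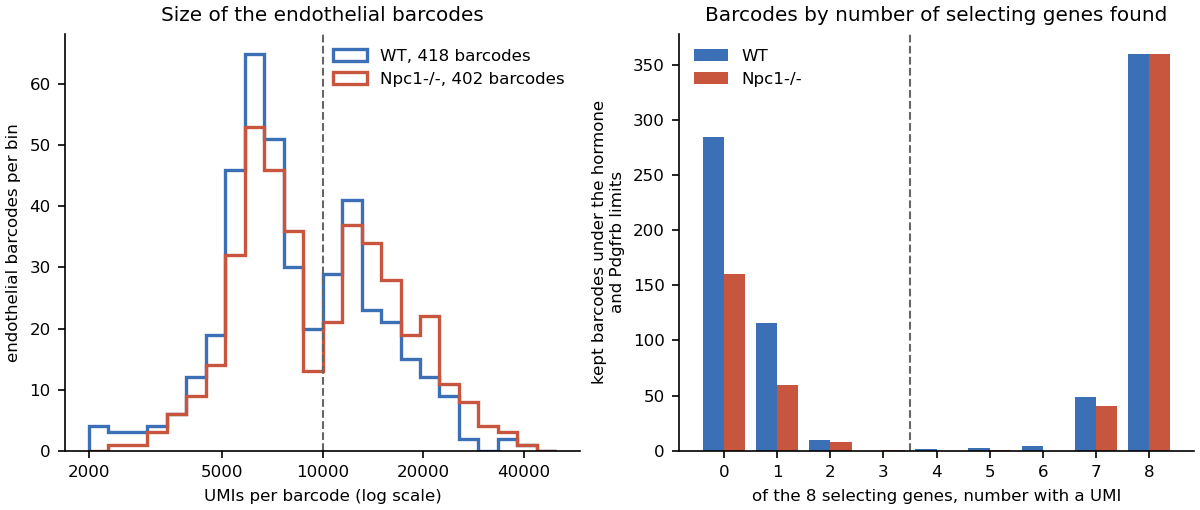
Left, number of endothelial barcodes (vertical axis) by UMIs per barcode on a log scale (horizontal axis) in WT and Npc1-/-, with a dashed line at 10000 UMIs; right, number of kept barcodes within the hormone and Pdgfrb limits by how many of the 8 selecting genes had a UMI, with a dashed line between 3 and 4. The UMI numbers form a hump on each side of 10000 in both libraries, and almost no barcode has 3 to 6 of the genes.

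The genes that set these barcodes apart from the rest of the islet were those of endothelium. Relative to the median gene of the comparison, 1469 of 7427 genes compared (19.8%) were at least 2 times higher in the endothelial barcodes than in all other kept barcodes in both libraries. The median gene itself stood 0.87 (WT) and 0.79 (Npc1-/-) log2 units higher, beside hormone transcripts that took 48.0% and 46.1% of the UMIs of the other barcodes. Because the same cells were chosen by endothelial genes, these ratios are a description. Of 29 further pan-endothelial genes, which took no part in the choice, all 29 were past 2 times in both libraries, with a median log2 ratio of 6.04 in WT and 5.27 in Npc1-/-. The most abundant of these were Tm4sf1, a tetraspanin-like surface protein (1518 CPM in WT, 1755 in Npc1-/-), Ramp2, the partner of the adrenomedullin receptor (1320 and 1373), Eng, a TGF-beta co-receptor (1261 and 1299), and Cd34, a surface sialomucin (1243 and 1280). A nearer class was the other kept barcodes under the hormone limit with a Pdgfrb UMI and fewer than 4 selecting genes (292 and 322 barcodes). Tm4sf1 was nearly as high in these Pdgfrb barcodes (1304 and 1562 CPM). Ramp2 (31.7 and 33.6 CPM), Eng (199 and 162) and Cd34 (25.1 and 16.8) were much lower there.

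To show what these genes have at their start sites, upstream sequence was read from the RefSeq promoter table (GRCm38.p6) for the 8 selecting genes and the 20 leading further genes; 20 of the 28 had an entry, with 26 promoters. Genes of endothelium are often bound by ETS factors, so the words CAGGAAG and CCGGAAG were searched on both strands in the 250 bases upstream of each start; the words were picked after the gene levels were known, and they do not overlap each other. CAGGAAG or its complement was found in 9 of the 26 promoters (34.6%), which belong to 8 genes (Btnl9, Cd34, Ces2e, Ctla2a, Cyyr1, Egfl7, Emcn and Robo4), against 3554 of all 32851 promoters in the table (10.8%). CCGGAAG was found in none of the 26 and in 6.91% of all. A match is a run of letters and not a known site. The upstream sequence of 4 of the 8 genes is shown, 5′ to 3′ on the strand of the gene, with the word in capitals (CTTCCTG where it lies on the other strand): Robo4, a guidance receptor largely of endothelium, at chr9:37401722-37401971 (plus strand), Emcn, a capillary sialomucin, at chr3:137340828-137341077 (plus), Cd34 at chr1:194938571-194938820 (plus) and Egfl7, a secreted endothelial matrix protein whose first listed start holds the word on each strand, at chr2:26580833-26581082 (plus).
Robo4: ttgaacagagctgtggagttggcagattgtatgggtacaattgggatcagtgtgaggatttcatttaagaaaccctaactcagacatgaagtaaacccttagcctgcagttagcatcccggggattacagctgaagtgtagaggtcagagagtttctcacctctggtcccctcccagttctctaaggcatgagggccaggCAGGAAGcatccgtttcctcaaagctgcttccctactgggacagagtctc
Emcn: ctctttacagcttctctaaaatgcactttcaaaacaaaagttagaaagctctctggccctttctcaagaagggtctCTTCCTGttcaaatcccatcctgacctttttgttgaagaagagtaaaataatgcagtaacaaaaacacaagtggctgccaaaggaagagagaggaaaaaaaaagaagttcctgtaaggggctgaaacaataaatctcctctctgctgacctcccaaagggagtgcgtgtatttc
Cd34: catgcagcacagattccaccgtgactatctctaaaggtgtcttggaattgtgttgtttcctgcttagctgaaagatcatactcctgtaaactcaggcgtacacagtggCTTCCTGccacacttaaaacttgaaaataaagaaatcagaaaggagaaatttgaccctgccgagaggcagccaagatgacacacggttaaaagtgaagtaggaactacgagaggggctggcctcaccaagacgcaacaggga
Egfl7: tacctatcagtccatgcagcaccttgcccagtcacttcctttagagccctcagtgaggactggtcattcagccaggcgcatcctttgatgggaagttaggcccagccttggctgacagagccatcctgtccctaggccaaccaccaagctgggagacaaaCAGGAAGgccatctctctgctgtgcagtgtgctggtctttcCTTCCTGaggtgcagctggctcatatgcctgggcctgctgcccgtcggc

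Among the selecting genes Plvap led, with 3793 (WT) and 4034 (Npc1-/-) CPM, against 24.2 and 52.0 CPM in the other kept barcodes. It was found in 99.5% and 100% of the endothelial barcodes, with a median over barcodes of 3696 and 3918 CPM. The VEGF receptors Flt1 (2011 and 2412 CPM) and Kdr (1682 and 1914 CPM), the capillary sialomucin Emcn (2385 and 2519 CPM) and Egfl7 (1991 and 2136 CPM) followed, and the junction proteins Pecam1 (1208 and 1196 CPM) and Cdh5 (868.4 and 904.8 CPM) were the lowest of the 8. Every one of these was found in at least 98.3% of barcodes of either library. Esm1, a proteoglycan induced by VEGF in capillary and tip endothelium (chr13:113209659-113218098), was the exception. Its level was 2077 CPM (WT) and 2250 CPM (Npc1-/-), but it was found in 88.5% and 91.0% of barcodes, and across barcodes it ran from 0 (10th percentile) through a median of 1576 to 5382 CPM (90th percentile) in WT and from 67.3 through 1905 to 5448 CPM in Npc1-/-.

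Levels of the 8 genes in the other kept barcodes were higher in the Npc1-/- library, 230 CPM in sum against 112 CPM in WT. Most of those UMIs sat in barcodes with at least 4 of the 8 genes that the hormone or Pdgfrb limit had left out: 54 such barcodes held 85.8% of 10099 UMIs in WT, and 83 held 92.4% of 20666 UMIs in Npc1-/-. In the remaining other barcodes the sum was 16.1 CPM (WT) and 17.9 CPM (Npc1-/-), against 16016 and 17365 CPM in the endothelial barcodes, so few of their UMIs lay outside barcodes that held several of these genes together.

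The 20 leading further genes, by ratio to the other barcodes among genes of at least 50 CPM, were Aplnr, Fam167b, Rgcc, Gpihbp1, Adgrl4, Ctla2a, Cd300lg, Ccdc85a, Robo4, Ly6c1, Myct1, Clec14a, Ces2e, Btnl9, Cyyr1, Cd34, Unc45b, Clec1a, Gm12002 and Arhgef15. Aplnr, the receptor of the peptide apelin, stood highest in WT and in the mean of both libraries, 138 times over the other barcodes in WT and 57.3 times in Npc1-/- (Fam167b, 59.1 times) relative to the median gene, at 431 and 333 CPM. Rgcc, a cell cycle regulator high in capillaries, was the most abundant of the 20 at 3352 and 3655 CPM. Gpihbp1, which carries lipoprotein lipase across capillary endothelium, was at 1227 and 1534 CPM, Ctla2a, a cysteine protease inhibitor, at 1617 and 1775 CPM, and Cd300lg, a receptor of capillary endothelium, at 688 and 854 CPM. Each of the 20 had a lower ratio in the Npc1-/- library, whose comparison set held the 83 left-out barcodes described above against 54 in WT; their part in these ratios was not tested.

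**Figure D2:**
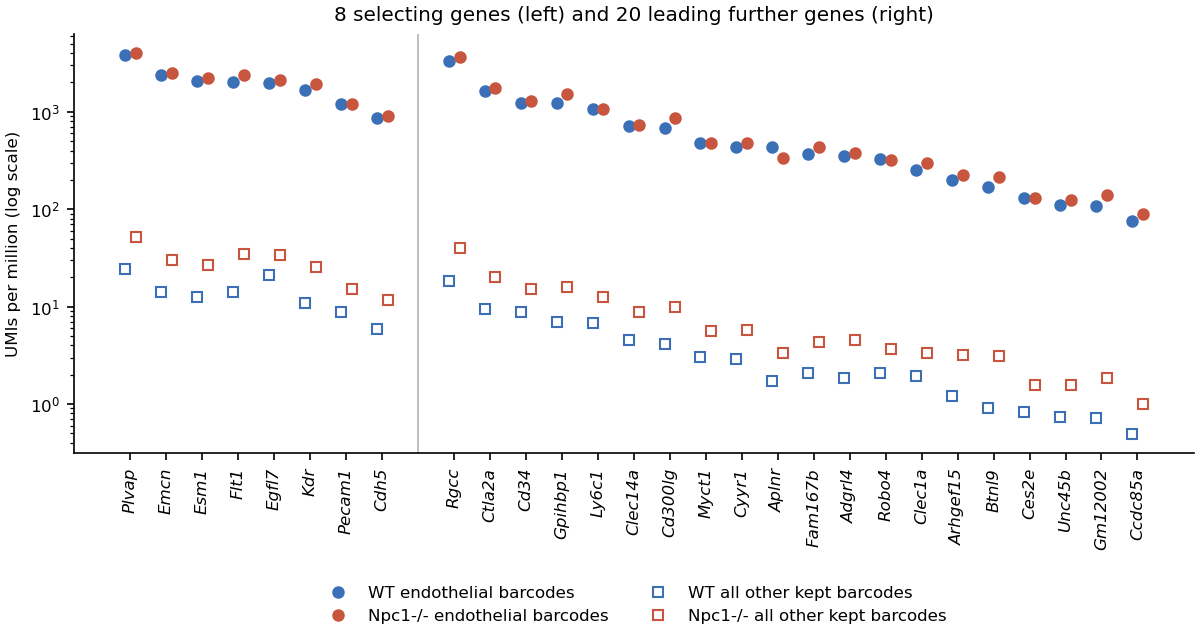
Level in CPM (log axis) of the 8 selecting genes and the 20 leading further genes (horizontal axis) in WT and Npc1-/- endothelial barcodes (filled circles) and in all other kept barcodes (open squares), 1 library each. The circles of the 2 libraries nearly coincide for most genes, and the Npc1-/- squares lie above the WT squares. The other kept barcodes include 83 left-out barcodes with at least 4 selecting genes in Npc1-/- and 54 in WT. Their part in the offset was not tested.

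Lists of capillary function are counted here without the 8 selecting genes. All 8 caveola and fenestra genes were past 2 times over the other barcodes in both libraries, and besides Gpihbp1 the highest were Ehd4, which acts in membrane traffic (1057 and 946.1 CPM), and Cavin3, a caveola coat protein (953.9 and 956.0 CPM). All 10 capillary genes compared were past it, with Plpp3 (2385 and 3239 CPM) and Plpp1 (1358 and 1894 CPM), 2 lipid phosphate phosphatases, beside Rgcc and Gpihbp1. All 11 tip cell genes compared were past it too, led by Igfbp3, which binds insulin-like growth factors (1102 and 1641 CPM), Nid2, a basement membrane linker (352.8 and 351.0), and Pdgfb, the growth factor that recruits pericytes (328.0 and 343.7). Of 13 VEGF and angiopoietin genes compared, 10 were past 2 times higher and 3 past 2 times lower (all genes: 19.8% and 16.3%). The coreceptor Nrp1 was at 1121 and 1126 CPM, and the angiopoietin receptors Tie1 and Tek were at 323 and 362.9 CPM and at 108.1 and 122.2 CPM. Angpt2, the ligand that destabilises vessels, reached 22.3 and 19.1 CPM, close to the lowest level compared.

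Basement membrane transcripts summed to 24207 CPM (WT) and 25700 CPM (Npc1-/-), against 750 and 1023 CPM in the other barcodes. Sparc, a collagen-binding matrix protein, led with 8982 and 9624 CPM and was found in 100% and 99.8% of barcodes, followed by the type IV collagen chains Col4a1 (5248 and 5468 CPM) and Col4a2 (2748 and 3059 CPM), then Sparcl1 (1582 and 1623 CPM), a relative of Sparc. The Pdgfrb barcodes described above were also rich in these transcripts, at lower levels. Sparc was at 6478 and 7413 CPM there, Col4a1 at 2555 and 2797, Col4a2 at 1325 and 1633 and Sparcl1 at 1094 and 1285. High levels of these genes were thus not particular to the endothelial barcodes. Of 18 basement membrane genes 16 were past 2 times over all other kept barcodes, against 19.8% of all genes compared. Junction genes (9 of 9 compared past it), Notch genes (9 of 10), the Ly6 surface proteins (3 of 3), leukocyte adhesion genes (3 of 3) and haemostasis and flow genes (8 of 9) were likewise higher. So were arterial genes (8 of 8 compared) and venous genes (2 of 3). Klf2, the transcription factor induced by flow, was at 1340 and 1477 CPM, the Notch receptor Notch1 at 246.4 and 285.9 CPM and its ligand Dll4 at 161.4 and 149.2 CPM. All 9 interferon response genes compared were past 2 times higher as well, led by Ifitm2 (1448 and 1516 CPM) and Ifitm3 (1260 and 1214 CPM), membrane proteins that limit viral entry. Of 12 antigen presentation genes 6 were past it and 3 past it in the other direction. H2-D1, a class I heavy chain, stood at 896.4 and 1048 CPM and B2m, its light chain, at 701.1 and 802.0 CPM. Against this, 11 of 13 mitochondrially encoded transcripts were past 2 times lower relative to the median gene, as were 16.3% of all genes. In CPM, not centred on the median gene, the list summed to 34682 (WT) and 33428 (Npc1-/-) against 44282 and 46339 in the other barcodes. The CPM of the other barcodes is lowered by their hormone transcripts, which the centred ratios allow for. A median of 3.36% (WT) and 3.34% (Npc1-/-) of UMIs was mitochondrial per endothelial barcode, against 4.28% and 4.46% in other kept barcodes.

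The endothelial barcodes differed among themselves in arterial and capillary genes. To compare shares at equal depth each barcode was thinned at random to 3000 UMIs, and 10 shallower barcodes of WT and 2 of Npc1-/- were left out. At least 3 of 10 arterial genes were then found in 24.8% (20.6 to 29.2) of 408 WT and 25% (20.8 to 29.5) of 400 Npc1-/- barcodes, and at least 3 of 7 venous genes in 2 and 1 barcodes (0.490% and 0.250%). These shares depend on depth: without thinning the arterial share was 49.8% and 58.0% and the venous share 5.02% and 3.73%. At least 2 of 7 lymphatic genes were found in 6 WT barcodes and 1 Npc1-/- barcode.

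Barcodes with Gja4, a gap junction protein of arterial endothelium, held Aplnr at a lower share than those without it. Among thinned WT barcodes with a Gja4 UMI, 36.9% (28.6 to 45.8) of 130 also had Aplnr, against 65.8% (59.9 to 71.4) of 278 without Gja4, and in Npc1-/- the shares were 25.6% (18.3 to 34.0) of 129 against 56.8% (50.7 to 62.8) of 271. The intervals of the shares with and without Gja4 did not overlap in either library. The reverse held for Stmn2, a microtubule regulator also listed as arterial, which occurred with Gja4 in 23.1% and without it in 3.60% of WT barcodes, and in 26.4% and 2.58% of Npc1-/- barcodes. Rbp7, a retinol-binding protein of capillaries, occurred with Gja4 in 64.6% and without it in 36.3% in WT, and in 78.3% and 42.8% in Npc1-/-. Igfbp3 and the chemokine Cxcl12 followed the same side, at 85.4% against 62.9% and at 47.7% against 25.2% in WT. Esm1 was found in 93.1% of Gja4 barcodes and 77.0% of the rest in WT, and in 96.9% and 79.0% in Npc1-/-. Fabp4, a fatty acid carrier, went with the barcodes in which Esm1 was not found: 58.9% of 73 such WT barcodes had Fabp4 against 40.9% of 335 with Esm1, and 62.3% of 61 against 38.9% of 339 in Npc1-/-. Aplnr was likewise commoner without Esm1 (82.2% and 72.1%) than with it (51.0% and 42.2%). These genes were picked for their spread between barcodes, and barcodes of 1 library are not replicates, so the shares carry no test.

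By size the barcodes formed a pair of humps. In WT, 71 barcodes had 6000 to 7000 UMIs, 15 had 9000 to 10000 and 24 had 11000 to 12000, and in Npc1-/- the same classes held 61, 9 and 19 barcodes, with 21 at 12000 to 13000. The class just under 10000 UMIs was thus less filled than those on either side in both libraries. At 10000 UMIs or more there were 155 WT barcodes (37.1%, 32.4 to 41.9) with a median of 4195 genes and 188 Npc1-/- barcodes (46.8%, 41.8 to 51.8) with a median of 4354 genes. Below it there were 263 and 214 barcodes with medians of 2539 and 2606 genes. The larger class was a bigger share of the Npc1-/- library, in which the median UMI number over all kept barcodes was also higher (21381 against 18905).

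G2 and M phase genes, found in few barcodes, summed to higher levels per UMI in the larger than in the smaller barcodes of both libraries. Relative to the median gene, 43 (0.671%) of 6405 genes compared were at least 1.5 times higher per UMI in the larger barcodes of both libraries. Another 9 (0.141%) were at least 1.5 times lower in both. No interval entered these counts. A gene had to reach 20 CPM in only 1 of the size classes of each library, and 37 of the 43 and 4 of the 9 were under 20 CPM in the other class of a library, so a low gene entered only where it was high. Summed over all 13 G2 and M phase genes, entered or not, the level was 799.6 CPM in the larger and 324.2 CPM in the smaller WT barcodes, and 761.2 and 175.1 CPM in Npc1-/-. The 16 S phase genes summed to 402.9 and 317.6 CPM in WT and 353.2 and 259.8 CPM in Npc1-/-. The 10 highest genes were Nusap1, Cdca8, Tk1, Hist1h1b, Prc1, Birc5, Pimreg, Cenpf, Tpx2 and Spc24, which act in mitosis or in making DNA and its histones. All 10 were under 20 CPM in the smaller barcodes of both libraries, so they entered only through the larger class and their rank supports nothing. Without the barcodes of the highest doublet (Scrublet) scores the counts were 16 higher and 17 lower. Nusap1, a spindle protein, was at 23.1 CPM in the larger and 0.604 CPM in the smaller WT barcodes and at 22.2 and 2.15 CPM in Npc1-/-. Cenpf, a kinetochore protein, was at 75.3 and 13.3 CPM in WT and at 57.7 and 4.31 CPM in Npc1-/-, and 5 barcodes of each library held 73.6% and 75.5% of its UMIs. At 3000 UMIs, at least 3 of 13 G2 and M genes were found in 18 WT barcodes (4.41%, 2.64 to 6.88) and 13 Npc1-/- barcodes (3.25%, 1.74 to 5.49), and without the highest Scrublet scores in 2.30% and 1.29%. By size the shares were 5.81% (2.69 to 10.7) of 155 larger and 3.56% (1.64 to 6.65) of 253 smaller WT barcodes and 5.85% (2.96 to 10.2) of 188 and 0.943% (0.114 to 3.37) of 212 in Npc1-/-, with overlapping intervals in both libraries. At least 3 of 16 S phase genes were found in 5.88% and 5.75%.

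Insulin transcripts were lower per UMI in the larger barcodes. Ins2 took 8282 CPM in the larger and 19029 CPM in the smaller WT barcodes, and 5134 and 12088 CPM in Npc1-/-; Ins1 took 2465 and 6392 CPM, and 1628 and 4248 CPM. Every endothelial barcode held UMIs of both. The remaining 8 of the 10 lowest were AY036118, Syt13, Rgs5, Slc30a8, Gpatch1, Scg3, Iapp and Fer, of which Syt13, Slc30a8 (the zinc transporter of insulin granules), Scg3 and Iapp (amylin) are also genes of endocrine cells. Other endocrine genes went the opposite way: Sst was past 1.5 times higher in the larger barcodes of both libraries, where 1 barcode held 52.7% (WT) and 47.3% (Npc1-/-) of its UMIs, and Rbp4 (114.8 and 12.7 CPM) and Chgb (96.7 and 41.1 CPM) were higher in the larger WT barcodes, where 5 barcodes held 84.4% and 56.7% of their WT UMIs. In Npc1-/- Rbp4 was at 12.04 and 12.20 CPM, and Chgb was lower in the larger barcodes (18.7 and 40.2 CPM). The selecting genes hardly moved, with median log2 ratios of -0.03 and -0.04 between the classes. No gene of the tip cell, Notch, junction, caveola, lysosome or autophagy lists was past 1.5 times in both libraries, while Fbln5 (arterial list), Col18a1 (basement membrane) and Apoe (cholesterol export) were past it, higher in the larger barcodes.

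**Figure D3:**
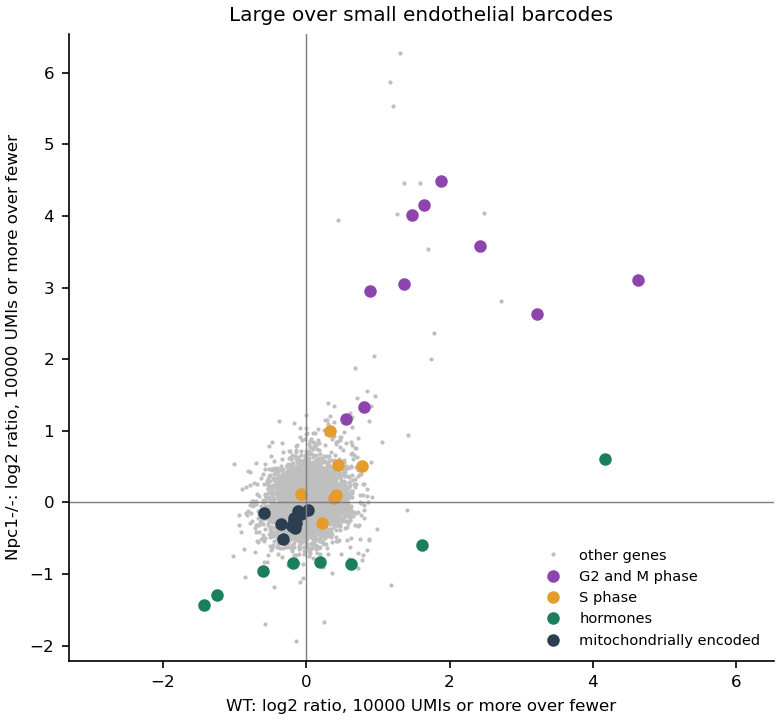
Log2 ratio of each gene's CPM between endothelial barcodes of 10000 UMIs or more and those with fewer, relative to the median gene, in WT (horizontal axis) and Npc1-/- (vertical axis), with 4 gene lists coloured. Most of the G2 and M phase genes drawn (10 of 13) lie high on both axes. Insulin and amylin lie low on both, and most other genes lie near 0. A gene had to reach 20 CPM in only 1 size class of each library, so a low gene was drawn only where it was high. The position of such low genes supports nothing. Summed over all 13, drawn or not, the level was 799.6 (larger) and 324.2 CPM (smaller) in WT, and 761.2 and 175.1 CPM in Npc1-/-.

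Between genotypes the endothelial barcodes were close to each other. Of 6644 genes that reached 20 CPM in WT or Npc1-/-, 98.2% were within 1.5 times of each other relative to the median gene, whose own log2 ratio was 0.01. Past 1.5 times, with the interval beyond the median gene, 32 genes (0.482%) were higher and 86 (1.29%) were lower in Npc1-/-. Of these, 34 of the 86 and 6 of the 32 had lower levels in the endothelial barcodes than in the other kept barcodes of the library where the gene was higher, as hormone and granin genes do, which left 52 lower and 26 higher that did not. Of the 32, 16 reached 20 CPM in Npc1-/- only, and of the 86, 47 in WT only, which is the library where each was high. Without the 5 barcodes that held most UMIs of each gene in each library, a comparison added after the data were seen, 45 of the 86 and 18 of the 32 were still past the limits, while 78 and 27 kept their side and 1 and 3 had no UMI left in either library. In the other kept barcodes 61 of the 86 and 29 of the 32 were on the same side of the median gene, against 61.0% of all genes compared, and 15 and 4 were past 1.5 times there on that side.

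Of the selecting genes none was past 1.5 times; the log2 ratios ran from -0.02 (Pecam1) to 0.25 (Flt1; 0.21 to 0.29), with 7 of 8 above the median gene. Of the 29 further pan-endothelial genes 1 was, Cldn5, a tight junction claudin, at 183 (WT) and 104 (Npc1-/-) CPM (log2 ratio -0.82, -0.99 to -0.66). Without its 5 highest barcodes in each library it stayed past the limits (-0.88). Without 5 WT barcodes described below, which held 122 of its 739 WT UMIs, it fell just within 1.5 times (-0.58, -0.76 to -0.41). The list's median was 0.04, against 0 for all genes.

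Among genes no lower in these barcodes than in the others of the library where they were higher, and on 1 side of the median gene in both size classes, the highest ratios given here belonged to Hotairm1, Fgf1, Fkbp5, Irx3, Map3k8, Trim37, Chrm2, Tiam1, Ripor2, Pptc7 and Gatsl3, with log2 ratios from 0.70 to 0.91. Hotairm1, Irx3, Map3k8, Ripor2 and Pptc7 reached 20 CPM in Npc1-/- only. Fgf1, a growth factor of the fibroblast growth factor family, was counted at 130 UMIs in 103 WT barcodes (32.2 CPM) and 278 UMIs in 164 Npc1-/- barcodes (61.1 CPM), a log2 ratio of 0.91 (0.61 to 1.22), and was also higher in the other Npc1-/- barcodes (3.36 and 5.34 CPM). Fkbp5, an immunophilin induced by glucocorticoids, was at 43.9 and 81.3 CPM, a ratio of 0.88 (0.62 to 1.15), again with the same side in the other barcodes (24.5 and 37.5 CPM). Hotairm1, a noncoding RNA of the HoxA cluster, was at 16.6 and 31.6 CPM in 57 and 108 barcodes. Trim37, a ubiquitin ligase, at 21.1 and 38 CPM, Tiam1, an activator of Rac, at 20.1 and 34.9 CPM, and Map3k8, a kinase upstream of ERK, at 11.2 and 20.7 CPM were higher in endothelial barcodes with log2 ratios of 0.13, 0.07 and -0.14 in the other barcodes. Each of these was spread over many barcodes, the 5 highest holding between 9.60% and 26.3% of its WT UMIs. Among genes lower in endothelial than in other barcodes and on 1 side of the median gene in both size classes, which leaves out the macrophage genes C1qb and Tyrobp, the highest ratios were those of C1qc, C1qa, Mgp, Gstp1 and March8, that of March8 (0.55) within 1.5 times. Of 133 C1qc and 191 C1qa UMIs in Npc1-/-, 1 barcode held 99.2% and 96.9%. Without each gene's 5 highest barcodes the ratio of C1qa turned to -1.04 and no C1qc UMI was left. The smaller barcodes of both libraries held no C1qc UMI, so its side there comes from the added 0.5 counts alone.

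By the same rule the 12 lowest were Marco, Stab2, Gpr182, Nr2f2, Npc1, Irf8, Pdlim1, Maf, Egr1, Ppp1r15a, Emilin1 and Man1a, of which only Egr1 and Ppp1r15a reached 20 CPM in Npc1-/-. Marco and Stab2, a pair of scavenger receptors, had 231 and 86 UMIs in WT and none in Npc1-/-, at least 86.9-fold and 32.3-fold lower against a floor of 3 UMIs over the Npc1-/- endothelial barcodes; with the counting error of both libraries the log2 intervals ended at -6.14 and -4.70. Those counts rested on few barcodes, which are described below. Egr1, an immediate early transcription factor, was at 198 (WT) and 103 (Npc1-/-) CPM (log2 ratio -0.95; -1.12 to -0.78), in 237 and 167 barcodes, and Ppp1r15a, a phosphatase subunit of the integrated stress response, was at 93.2 and 51.0 CPM. Both were also lower in the other Npc1-/- barcodes (-0.75 and -0.62). Irf8, an interferon regulatory factor, was at 24.0 and 11.4 CPM, with a lower ratio in the other barcodes (8.03 and 2.55 CPM; -1.73), and among barcodes with at least 7 of the 8 selecting genes, a setting added after the data were seen, its log2 ratio was -0.48. Emilin1, an elastic fibre protein, was at 26.3 and 14.5 CPM, Man1a, a Golgi mannosidase, at 34.0 and 18.9 CPM and Pdlim1, an actin adaptor, at 31.7 and 15.2 CPM. Among genes lower in endothelial than in other barcodes and on 1 side of the median gene in both size classes, which leaves out Sst, the lowest ratios were those of Rbp4, Gm47283, Chgb, Tmem27 and Gpx3, of which Rbp4 was at 72.9 and 12.1 CPM. In WT 5 barcodes held 84.4% of the UMIs of Rbp4, 56.7% of Chgb, 50.7% of Tmem27 and 61.0% of Gpx3, against 9.49% of Gm47283. Without each gene's 5 highest barcodes the log2 ratios were -0.39 for Rbp4, -0.49 for Chgb, -0.74 for Tmem27 and -0.49 for Gpx3, none past the limits, and -1.74 for Gm47283. Gm47283 is annotated on chromosome Y (chrY:90784738-90816464, plus strand), although the mice are described as female. It was found in 111 WT and 47 Npc1-/- endothelial barcodes, with a log2 ratio of -2.10 in the other barcodes. Its bearing on the sex or make-up of the pools was not tested.

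**Figure D4:**
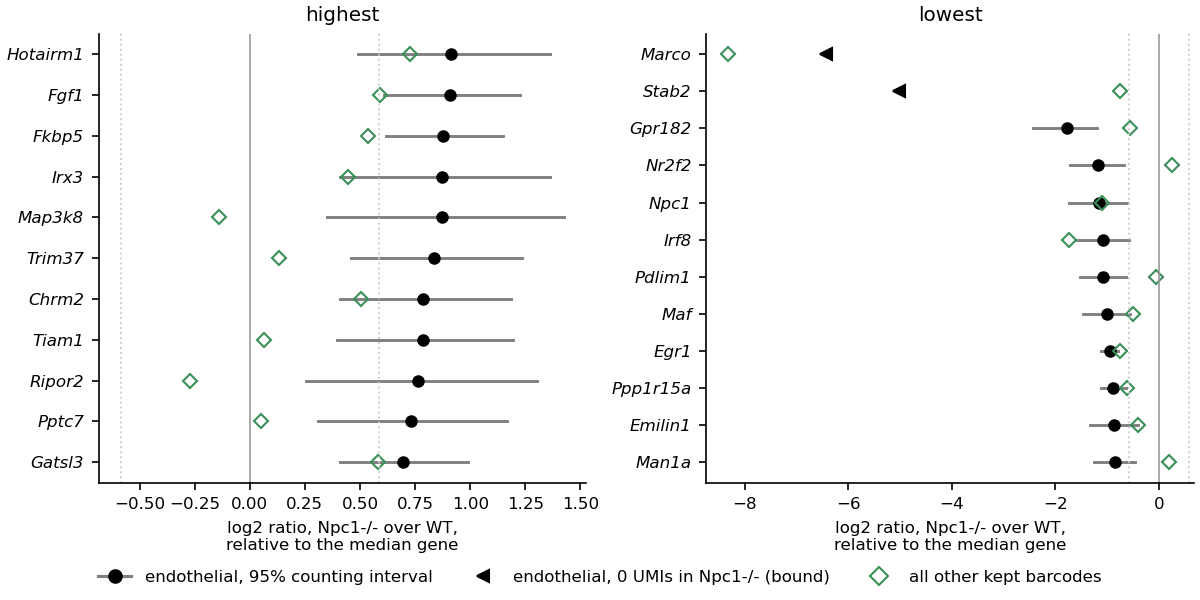
Log2 ratio of Npc1-/- over WT, relative to the median gene (horizontal axis), for the 23 genes of highest and lowest ratio named here: points with 95% counting intervals for the endothelial barcodes, triangles for the bound where Npc1-/- had no UMI, and open diamonds for all other kept barcodes; dotted lines mark 1.5 times. Npc1 and Egr1 have diamonds beside their points, while Trim37, Tiam1, Map3k8 and Pptc7 have diamonds near 0.

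By gene group, most lists centred near the median gene, and the counts below stand beside 0.482% higher and 1.29% lower among all genes compared. Of 12 VEGF and angiopoietin genes compared none was higher and 1 lower, Apln, the ligand of Aplnr (65.2 and 42.4 CPM; log2 ratio -0.63), and Aplnr itself stood at -0.38 (-0.48 to -0.28), within 1.5 times. Of the capillary genes none was past 1.5 times, yet 7 of 10 lay above the median gene with a list median of 0.21. The furthest were Plpp1 and Rbp7 (0.47 each) and Plpp3 (0.43; 0.39 to 0.47). Plpp3 was found in 97.8% and 99.8% of barcodes, with medians over barcodes of 2268 and 3246 CPM. Igfbp3, with the highest ratio in the tip cell list at 0.56 (0.51 to 0.62), had barcode medians of 614 and 1130 CPM, while the list's median was -0.11 and its only gene past 1.5 times was Apln. Of 10 Notch genes Hey2, a Notch target of arterial cells, was lower (41.2 and 27.5 CPM; -0.59) and none higher. Arterial genes (8 compared, none past it, median 0.16), caveola and fenestra genes (9, none, -0.05), haemostasis and flow genes (9, none, 0.09), leukocyte adhesion genes (3, none, 0.03) and Ly6 genes (3, none, -0.03) had no gene past the limit.

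Beside 0.482% higher and 1.29% lower among all genes compared, 1 of 18 basement membrane genes was past the limit, with a list median of 0.05. It was Fn1, fibronectin, at 13.1 and 20.2 CPM (0.61, 0.11 to 1.13), which reached 20 CPM in Npc1-/- only. In Npc1-/- 1 barcode held 52.2% of its UMIs and 5 held 62.0%. Without its 5 highest barcodes in each library the log2 ratio of Fn1 turned to -0.06 and was not past the limit. In the junction list Cldn5 alone of 11 was past the limit, and the median was 0.08. As above, Cldn5 fell just within 1.5 times without the 5 WT barcodes described below. In the antigen presentation list Cd74, the class II invariant chain, was lower (21.3 and 11.9 CPM) and none higher of 9. It was found in 3.35% and 0.498% of barcodes, and 219 CPM in the other WT barcodes faced 18.9 CPM in the other Npc1-/- barcodes. In WT 5 barcodes held 89.5% of its UMIs, and in Npc1-/- 1 barcode held 96.3% of 54 UMIs. Without its 5 highest barcodes in each library no Npc1-/- UMI of Cd74 was left, and it was not past the limit. The class I genes of the list lay above the median gene, H2-T23 at 0.31 (0.14 to 0.48) and H2-K1 at 0.24 (0.16 to 0.33), for a list median of 0.18. Paracrine ligands had a median of -0.23 over 7 genes, with 1 past the limit, Cyr61, a matricellular protein (169 and 94.5 CPM; -0.85), and Ctgf, its relative, at -0.45 (-0.77 to -0.13). Interferon response genes had a median of -0.01, with none of 9 past it, and the lymphatic list had none of 1. Of 3 venous genes 1 was past it, Nr2f2 (24.3 and 10.8 CPM). Without the 5 WT barcodes described below Nr2f2 was under 20 CPM in both libraries (log2 ratio -0.67).

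Lysosomal and sterol genes, the groups nearest to the function of NPC1, showed small differences. Beside 1.29% lower and 0.482% higher among all genes compared, 1 of 28 lysosome genes was past 1.5 times, the lower Cd63, a lysosomal tetraspanin, at 59 and 33.2 CPM, against 423 and 477 CPM in the other barcodes, and the list median was 0.01. Laptm4a, the most abundant, was at 715 and 741 CPM, the protease Ctsl at 534 and 579 CPM, and Lamp1, a membrane protein of the lysosome, at 465 and 490 CPM. Only 6 of 20 sterol synthesis and uptake genes reached 20 CPM, none was past 1.5 times, and the most abundant, Stard4, a carrier of sterols between membranes, was at 64.2 and 60.2 CPM. Of 9 cholesterol export genes Npc1 and Abca1, an exporter of cholesterol, were lower, Abca1 at 111 and 72.7 CPM (-0.61; -0.82 to -0.41), and none was higher. Its level in the other barcodes was 33.1 (WT) and 46.4 (Npc1-/-) CPM, the opposite order, and the difference between the 2 sets of barcodes was not tested. Npc2, the soluble partner of NPC1, was at 197 and 228 CPM (0.20; 0.07 to 0.33), Scarb1, the HDL receptor, at 606 and 681 CPM, and Apoe, a lipid carrier, at 197 and 247 CPM (0.32; 0.18 to 0.45), 5 barcodes of each library holding 50.4% and 48.4% of its UMIs. None of 14 autophagy genes (median 0.07), 9 glucose and hypoxia genes (0.02), 5 fatty acid genes (0.07), 13 mitochondrially encoded genes (-0.04), 7 S phase genes (-0.15) or 8 G2 and M phase genes (-0.22) was past the limit.

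After the hormone and granin lists (8 and 6 genes), the immediate early and heat shock list had the most genes past the limit. Of 19 compared 5 were lower in Npc1-/- (Egr1, Ier3, Fos, Hsph1 and Hspa1a), none was higher, against 1.29% lower and 0.482% higher among all genes compared, and 18 lay below the median gene, for a median of -0.36. Of the 5, Hsph1 (26.3 and 17.1 CPM) reached 20 CPM in WT only, where it was high. Fos was at 760 (WT) and 478 (Npc1-/-) CPM (-0.68; -0.76 to -0.60), the chaperone Hspa1a, whose count is uncertain beside its near-identical copy Hspa1b, at 685 and 454 CPM (-0.60; -0.68 to -0.52), and Ier3, an early response gene, at 126 and 77.1 CPM. Klf6, a zinc finger factor, was the exception at 156 and 188 CPM. The sum of the list was 10008 CPM in WT and 7790 CPM in Npc1-/- endothelial barcodes, and 3340 and 2024 CPM in the other barcodes, so the same order was seen outside the endothelium.

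**Figure D5:**
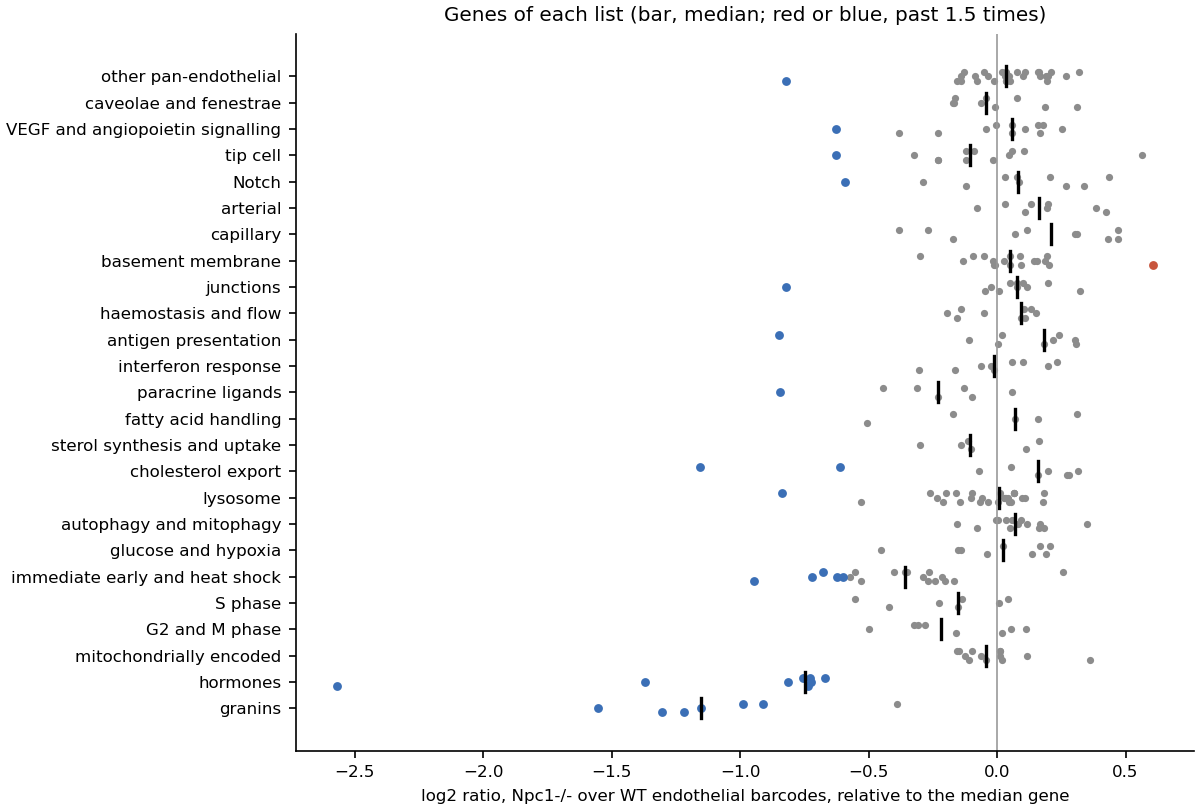
Log2 ratio of Npc1-/- over WT in endothelial barcodes, relative to the median gene (horizontal axis), for each gene compared in 25 lists (rows); black bars are list medians, and blue and red points are past 1.5 times lower and higher. Most medians lie within 0.2 of 0, while hormone, granin and immediate early genes lie to the left.

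The Marco UMIs came from 5 WT barcodes with 26, 37, 42, 61 and 65 Marco UMIs each, and 3834 to 17594 UMIs in all. All 5 also had UMIs of Stab2, Gpr182, Cd55, Clu, C3, Il33, F8, Nr2f2, Prox1 and Cldn5, and 4 of them had Lyve1 (42 UMIs, against 2 in the other WT endothelial barcodes). None had a UMI of Emcn, Esm1, Flt1, Plpp3 or Cd34, and each met the rule with 4 or 5 genes. Kdr (37 UMIs), Egfl7 (53) and Cdh5 (25) were found in all 5. They held 122 of the 739 Cldn5 UMIs in WT. The other 66 Stab2 UMIs lay in 3 barcodes without Marco. Beyond the 5, WT had 13 other kept barcodes with Marco, 3 of them with at least 3 UMIs, and the kept Npc1-/- barcodes had a single Marco UMI. Without the 5 barcodes, a setting added after the data were seen, the log2 ratio was -0.58 for Cldn5 in place of -0.82, -0.67 for Nr2f2 in place of -1.18, -0.57 for Maf in place of -1.0 and -1.21 for Gpr182 in place of -1.78. Cldn5 and Maf were then within 1.5 times, and Gpr182 and Nr2f2 were under 20 CPM in both libraries. Clu, 1 of the 86 genes lower in Npc1-/-, turned from -0.62 to 0.37 (0.11 to 0.63), and Prox1 from -0.24 to 0.45 (-0.22 to 1.16). Of the lymphatic list the 5 barcodes held 20 Prox1, 11 Mmrn1, 7 Reln, 2 Pdpn, 7 Flt4 and 0 Ccl21a UMIs, besides Lyve1. The other WT endothelial barcodes held 31, 2, 0, 0, 495 and 0. The 5 barcodes stand apart from the other endothelial barcodes in their leading genes. Their cell type was not tested, and they are given no cell type name.

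Transcripts of other cell types were low but not equal in the 2 libraries. The 9 hormone genes took 2.27% (WT) and 1.26% (Npc1-/-) of the UMIs of endothelial barcodes, and all 8 compared were past 1.5 times lower in Npc1-/- (median -0.75), from Ins2 (12695 and 7264 CPM; -0.82) and Gcg (1393 and 846 CPM; -0.73) to Pyy (1330 and 518 CPM; -1.37) and Sst (985 and 167 CPM; -2.57). The differences of most hormone genes rested on few barcodes. In WT 5 barcodes held 93.1% of the UMIs of Sst, 69.6% of Pyy, 47.2% of Ppy, 37.6% of Ttr, 27.1% of Gcg and 16.4% of Iapp, and 1 barcode alone 40.4% of Ppy, 33.5% of Ttr and 22.7% of Gcg. Without each gene's 5 highest barcodes none of these 6 was past the limits, their log2 ratios lying between -0.55 (Iapp) and 0.22 (Sst). Ins1 and Ins2 were spread, with 2.83% and 2.45% in 5 WT barcodes, and stayed at -0.78 and -0.83. In the other kept barcodes the same genes took 48.0% and 46.1%. Of 7 granin and prohormone genes 6 were lower as well (median -1.15), Chgb at 73.9 and 25.3 CPM. Of the 6, Scg5 (38.9 and 17.6 CPM) and Scg3 (24.3 and 13.0 CPM) reached 20 CPM in WT only, where they were high. Single WT barcodes held 24.8% of the UMIs of Chgb, 19.8% of Pcsk1n, 19.1% of Scg5 and 16.01% of Scg2. Without each gene's 5 highest barcodes Scg2 (-0.78), Pcsk1n (-0.73) and Cpe (-0.67) were still past the limits. Chgb (-0.49) and Scg5 (-0.52) were not, nor was Scg3 (-0.71), which was past 1.5 times in ratio only. In the smaller barcodes the ratio of Chgb was -0.03. Insulin RNA was thus found in every endothelial barcode and was more abundant in WT. Its part in the other differences was not tested.

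Mural genes took 62.7 (WT) and 59.1 (Npc1-/-) CPM against 337 and 376 CPM in the other barcodes, led by Rgs5 (108 and 124 UMIs), with 4 and 6 barcodes holding at least 3 of the 9 genes and Pdgfrb at 0 by the rule. Fibroblast genes had 29 and 19 UMIs in all (Lum and Pdgfra at 0 in both libraries), T cell genes 7 and 7 (Cd3d and Cd3e at 0 in both), platelet genes 27 and 40. Several lists rested on single barcodes. Macrophage genes had 64 UMIs in WT and 547 in Npc1-/-, of which 1 barcode held 537, and Schwann genes had 53 UMIs in WT, 47 of them in 1 barcode, and 8 in Npc1-/-. B cell genes had 166 UMIs in WT, 102 of them in 1 barcode, and 13 in Npc1-/-. Acinar genes had 338 and 285 UMIs (176 of the WT ones in 1 barcode), and duct genes 176 and 67. Whether such barcodes hold more than 1 cell was not tested beyond the hormone and Pdgfrb limits and the removal of the highest doublet scores as an alternative.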

How the data were processed

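The deposited files held UMI counts per gene and barcode (unit counts, whole numbers, not normalized), which the authors made per library from 3′ reads; the submitters' processing notes name Cell Ranger 3.1.0, Seurat 4.0.3 and build mm10. Files were read as deposited, and only the counts were used. The 8 genes and limits that define the barcodes, the 39 gene lists and the rules for named genes were chosen with earlier results of these data known; named genes were the highest and lowest ratios under those rules. The genes compared between WT and Npc1-/- had at least 20 CPM in either library, those ranked as leading at least 50 CPM. Counts were summed over barcodes and divided by summed UMIs. Log2 ratios added 0.5 counts and are given relative to the median gene, with exact conditional binomial intervals. Between genotypes a gene was called past 1.5 times with its interval on that side. Between size classes it was called on the ratio alone, past 1.5 times in both libraries. Shares have Clopper-Pearson intervals (Python 3.11.15, scipy 1.17.1, numpy 2.4.6, pandas 2.3.3). The ratio and interval code was tested on simulated counts. With 1 library per genotype no p-value was computed. Doublets were limited by the hormone and Pdgfrb limits; Scrublet scores (scanpy 1.11.5, 0.8% expected per 1000 barcodes) and TMM factors (edgeR 4.0.16) served as alternatives only. Random thinning used 3000 UMIs and a fixed seed. Gene positions are from GENCODE M21 (GRCm38), promoters from RefSeq (GRCm38.p6). The values of 2 genes that the rules would name are not reported here.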

Additional observations from a re-analysis of the deposited data

Results flagged for a closer look

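Barcodes with at least 4 of the 8 selecting genes also occurred outside the endothelial set, in barcodes that no comparison used as endothelial. In WT 26 such barcodes failed a limit on barcode quality, 25 failed only the hormone limit and 27 failed only the Pdgfrb limit; in Npc1-/- the numbers were 36, 31 and 50. Those that failed only the hormone limit had medians of 33004 (WT) and 30214 (Npc1-/-) UMIs and those that failed only the Pdgfrb limit 18132 and 22985 UMIs, against 7568 and 8749.5 UMIs in the endothelial barcodes. Of the barcodes that failed on quality, 13 and 13 had at least 10% mitochondrial UMIs, 6 and 19 had 1000 genes or fewer, and 8 and 10 were over the haemoglobin limit.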

How the results depend on the processing

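No paired analysis was possible because each genotype has 1 library and no test was made. Of 34 named genes compared by genotype, 32 kept their side of the median gene under each of the 14 alternatives that gave them a value. The exceptions were C1qc and C1qa, whose log2 ratios turned to -0.20 (1 UMI left in each library) and -1.13 without the highest Scrublet scores (17 WT and 12 Npc1-/- barcodes removed), and C1qa turned to -1.04 without each gene's 5 highest barcodes. No UMI was left, and so no ratio, for C1qc without its 5 highest barcodes or under 10000 UMIs, and for Marco without its 5 highest barcodes, without the barcodes that hold it or with at least 7 of the 8 selecting genes. List medians near 0 also changed side: the lysosome median (0.01) kept its side in 8 of 14 alternatives and ranged from -0.06 to 0.03, that of sterol synthesis and uptake in 12 (-0.15 to 0.22) and that of junctions in 13 (-0.02 to 0.10). The counts of genes past 1.5 times between genotypes (32 higher, 86 lower) became 9 and 29 at a minimum of 50 CPM, 118 and 294 at 5 CPM, 111 and 160 in barcodes under 10000 UMIs and 74 and 130 in those of 10000 or more. Between size classes (43 higher, 9 lower) they became 16 and 17 without the highest Scrublet scores, 7 and 5 at 50 CPM, with 14 lower at a hormone limit of 5% and 20 lower when cut at the median UMI number. Endothelial shares were 11.6% and 13.0% of kept barcodes at a mitochondrial limit of 5%, which removed more of the other barcodes.

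Shares by subtype genes moved with depth and, for G2 and M genes, with the doublet scores. Without thinning, G2 and M genes were found in 7.89% of WT barcodes, S phase genes in 30.9% (WT) and 34.1% (Npc1-/-), arterial genes in 49.8% and 58.0%, venous genes in 5.02% and 3.73% and lymphatic genes in 4.55% and 5.22%. Thinned to 2000 UMIs, S phase genes were found in 3.59% and 2.49%, arterial genes in 15.8% and 16.7%, and venous and lymphatic genes in 0% of Npc1-/- barcodes. Without the highest Scrublet scores G2 and M genes were found in 2.30% and 1.29%, and with at least 7 of the 8 selecting genes, a setting added after the data were seen, venous and lymphatic genes in 0% and 0.250% of WT barcodes. The causes were not tested. In all, 115 summary values and 526 values of single genes or shares stayed within 1.5 times (counts) or within the counting interval, 35 and 40 moved, and the 3 values of C1qc and C1qa above were reversed. The list medians near 0 that changed side, given above, are not among those 3. Depth limits the low genes: for Angpt2, at 22.3 and 19.1 CPM, the interval of the log2 ratio ran from -0.67 to 0.21.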
